A study of Mus musculus with 24 samples.

Results

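The miR-17 to miR-92a cluster was described in extracellular vesicles (EVs) isolated from mouse serum, by the 7 mature miRNAs of the cluster that were chosen by name from the table of counts. They are mmu-miR-17-5p, mmu-miR-17-3p, mmu-miR-18a-5p, mmu-miR-19a-3p, mmu-miR-20a-5p, mmu-miR-19b-3p and mmu-miR-92a-3p, written below without mmu, the prefix for mouse. They are 7 of the 1966 mature miRNAs in the table. Small RNA was sequenced from 24 wild type C57BL/6 mice, male and 14 to 16 weeks old, with 1 library per mouse and 6 mice in each of 4 groups. The surgery mice had an open tibia fracture stabilized with a pin, under isoflurane and buprenorphine, and blood was taken 6 h (S6h), 24 h (S24h) or 72 h (S72h) later. The S24h and S72h mice also had a daily dose of analgesia. The Control mice had saline injections and no surgery, and they are the control set that was assigned to the 6 h time point. The other set of controls, C24-72h, was not analysed here, so the set of animals, the analgesia and the time after surgery cannot be told apart in comparisons of the late groups with Control or S6h. The study reports that it found no statistical difference between its control sets, and it kept C6h alone for miRNA. It had no group with anaesthesia alone. In every comparison with Control the surgery thus cannot be told apart from its anaesthesia and analgesia. The EVs were precipitated from serum with a kit, and a serum preparation of this kind can also hold miRNAs that are not inside vesicles.

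The cluster is transcribed as 1 long RNA, from which the hairpins are cut and processed to mature miRNAs of about 22 bases. A miRNA finds its target mRNAs mainly through its seed, bases 2 to 8 from the 5′ end, so miRNAs that share a seed share many predicted targets. The cluster is known for promoting proliferation and survival of blood and tumour cells, and miR-92a is abundant in blood cells and plasma. Related hairpins lie in a second cluster on the X chromosome (Mir106a to Mir363) and in another cluster within the gene Mcm7 (Mir106b, Mir93 and Mir25).

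In the mouse genome GRCm38, which is the build of the authors' alignment, the 6 hairpins Mir17, Mir18, Mir19a, Mir20a, Mir19b-1 and Mir92-1 lie in this order at chr14:115043671-115044506 on the plus strand, within 836 bases. All 6 lie in exon 2 of the long noncoding RNA gene Mir17hg (ENSMUSG00000089726.2, chr14:115042879-115046727). The mature sequences below are those of RefSeq for GRCm38, where all 7 members were matched, and are shown since the groups by seed carry the comparisons that follow. They are written 5′ to 3′ with the seed in capitals.

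miR-17-5p: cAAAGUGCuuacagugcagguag
miR-20a-5p: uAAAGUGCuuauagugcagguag
miR-18a-5p: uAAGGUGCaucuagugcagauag
miR-19a-3p: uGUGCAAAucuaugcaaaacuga
miR-19b-3p: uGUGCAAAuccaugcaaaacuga
miR-17-3p: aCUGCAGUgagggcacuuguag
miR-92a-3p: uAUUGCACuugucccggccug

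The members fall into 5 seeds. miR-17-5p and miR-20a-5p share the seed AAAGUGC, and differ by C1U and C12U, where the first letter is the base of miR-17-5p and positions are counted from the 5′ end. miR-19a-3p and miR-19b-3p share the seed GUGCAAA and differ by the substitution U11C. miR-18a-5p, miR-17-3p and miR-92a-3p have a seed that no other member has.

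Relatives in the Mcm7 cluster were taken for comparison as the arms of a related cluster, of which only some share a seed with a member. miR-106b-3p, miR-93-3p and miR-25-5p share none. By sequence, miR-92b-3p, with 2 differences from miR-92a-3p, and miR-106a-5p, with 1 difference from miR-17-5p, are nearer. miR-93-5p and miR-106b-5p of the Mcm7 cluster have the seed of miR-17-5p, and miR-25-3p of the Mcm7 cluster has the seed of miR-92a-3p. Over the 21 bases that can be compared, miR-25-3p differs from miR-92a-3p by U1C, C14U and C18U, none of them in the seed.

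miR-25-3p: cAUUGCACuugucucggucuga
miR-93-5p: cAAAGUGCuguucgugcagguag
miR-106b-5p: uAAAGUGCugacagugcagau

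For 2 of the members the mature sequence does not tell which hairpin it came from. The sequence of miR-92a-3p is held by Mir92-1 in the cluster and by Mir92-2 at chrX:52741838-52741928 on the minus strand, and that of miR-19b-3p by Mir19b-1 and by Mir19b-2 at chrX:52741983-52742066. The hairpins of miR-92a-3p are shown with the mature miRNA in capitals, since they differ only outside it.

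Mir92-1: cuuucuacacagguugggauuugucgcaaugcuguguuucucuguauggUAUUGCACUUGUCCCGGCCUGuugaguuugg
Mir92-2: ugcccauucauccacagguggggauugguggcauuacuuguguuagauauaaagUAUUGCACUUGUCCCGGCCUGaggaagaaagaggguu

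The other arms, miR-92a-1-5p and miR-92a-2-5p, would tell these hairpins apart, but both had 0 counts in the 24 libraries. The other arms of miR-19b, miR-19b-1-5p and miR-19b-2-5p, were also at 0. Of the 10 listed arms of the X chromosome cluster none passed the limit for testing, and together they held 121 counts. The values of miR-92a-3p and miR-19b-3p thus cannot be assigned to 1 locus.

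Total counts per library ranged from 63956 to 471801, with group medians of 117578.5 in Control, 177467.5 in S6h, 75030 in S24h and 94427.5 in S72h. Levels are given as CPM, the count of a miRNA scaled by the library's total count. Where a miRNA was at 0, the limit set by 3 counts was 6.36 CPM in the deepest library and 46.9 CPM in the shallowest, for counting error alone. All 7 members passed the limit for testing, which was 10 CPM in at least 12 of the 24 libraries, and miR-19a-3p did so in exactly 12.

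miR-92a-3p held nearly all of the cluster's reads. It had 46468 of the 48964 counts of the 7 members over the 24 libraries and ranked 20 among all miRNAs by summed counts. It was the most abundant member in 24 of 24 libraries, with 88.3% to 99.2% of the members' counts in a library (median 94.7%). The next members by summed counts were miR-19b-3p with 604, miR-17-5p with 568 and miR-20a-5p with 545 counts. miR-18a-5p had 334, miR-17-3p 305 and miR-19a-3p 140 counts. Of the 5 other arms of the hairpins, miR-18a-3p had 176 counts, miR-19a-5p had 6 counts in 1 library, and miR-19b-1-5p, miR-20a-3p and miR-92a-1-5p had none. Counts of different miRNAs are compared here as read, and the ligation steps of small RNA libraries are known to favour some sequences over others.

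**Figure D1:**
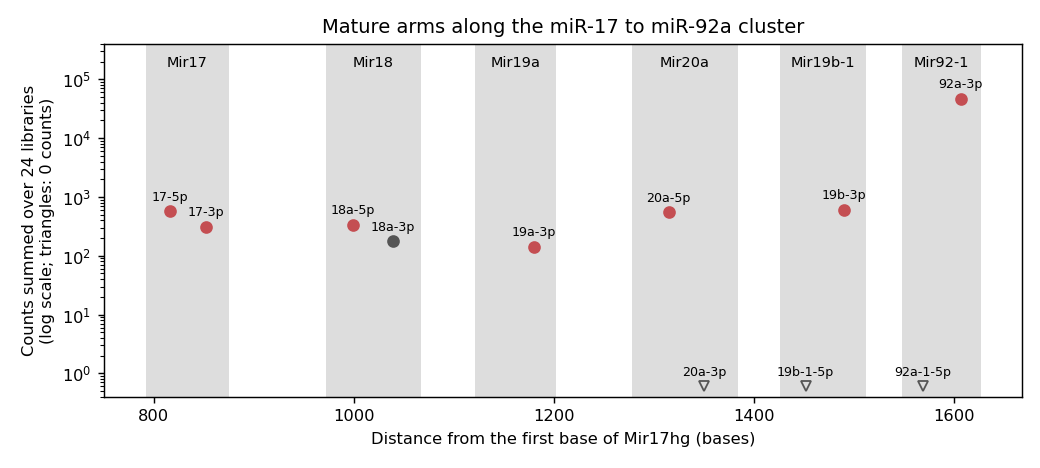
Counts summed over the 24 libraries (vertical axis, log scale) for each mature arm, by distance in bases from the first base of Mir17hg (horizontal axis). Grey bands are the 6 hairpins, red points the members and dark symbols other arms, with open triangles for arms at 0 counts; miR-92a-3p at 46468 counts stands above the other members, which had 140 to 604, and miR-19a-5p, with 6 counts, is not drawn.

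No difference in the level of miR-92a-3p was detected in the 5 comparisons tested, and S72h was not compared with S6h. It ranged from 10007 to 20264 CPM in Control mice (median 15841), from 7897 to 18393 in S6h mice (median 13533), from 13575 to 18184 in S24h mice (median 15797) and from 8036 to 14957 in S72h mice (median 13028). The values of the groups overlapped in each comparison. The means were 15392 ± 4048, 13615 ± 4199, 15693 ± 1806 and 11988 ± 2960 CPM (SD, n = 6 each), and the order of the groups was S24h, Control, S6h and S72h, in which neighbours differed by less than the larger of their SDs.

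Fold changes of single miRNAs were tested with edgeR's quasi-likelihood test on all 252 miRNAs that passed the limit, with TMM scaling and 1 model of the 4 groups, and a miRNA was called where the fold change reached 1.5 and the Benjamini-Hochberg adjusted p was below 0.05. Replicates are separate mice. Against Control, the log2 fold change of miR-92a-3p was -0.14 for S6h (95% interval -0.70 to 0.43), -0.15 for S24h (-0.72 to 0.41) and -0.28 for S72h (-0.84 to 0.29). The adjusted p values from edgeR were 0.991, 0.776 and 0.658. Between the S24h and S6h groups it was -0.01 (95% interval -0.58 to 0.55), and between the S72h and S24h groups -0.13 (-0.69 to 0.44). The sign of the small values at 24 h depended on the scaling of the libraries. With column totals in place of TMM the value at 24 h against Control was 0.03.

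miR-19a-3p was the only member called in any of the 5 comparisons, at 24 h against Control. It was read in 5 of 6 Control mice, with 14, 3, 9, 0, 21 and 24 counts, and in 4 of 6 S6h mice, with 0, 0, 7, 20, 16 and 1 counts. In the S24h group 5 mice were at 0 and 1 mouse had 2 counts. In the S72h group 3 mice were at 0 and the others had 4, 4 and 15 counts. The range in Control, 0 to 229 CPM, overlapped that of S24h, 0 to 16.7 CPM, since 1 Control mouse was also at 0.

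The log2 fold change of miR-19a-3p at 24 h against Control was -4.63 with a standard error of 1.56 (edgeR, adjusted p = 0.0479). A fitted fold of a miRNA with so few counts is imprecise, and its 95% interval ran from -7.81 to -1.45. The pooled counts, 2 in S24h and 71 in Control, give a level 24.8-fold higher in Control, with an exact counting interval of 6.63 to 209 that leaves out the spread between mice. Of the 252 miRNAs tested, 11.9% were called in this comparison and 7.94% were called lower, beside 1 of the 7 members. With DESeq2, the tool of the study, the value was -4.52 (DESeq2, adjusted p = 0.0329), where 19.8% of all miRNAs tested were called. The call rested on few reads and on single mice. It was lost with RLE size factors (edgeR, adjusted p = 0.0505), without the limit on low counts (0.0575) and with the replicate number as a block (0.0619). When each of the 12 mice was left out in turn it remained in 1 fit, without Control replicate 4, and in 6 of these fits miR-19a-3p no longer reached the limit for testing. With the tested set kept it remained in 4 of 12 fits. The log2 fold change in these 12 fits ran from -6.69, without S24h replicate 3, to -4.20, without Control replicate 6. S24h also had the lowest median total. There 3 counts correspond to 20.9 to 45.0 CPM, beside 11.4 to 46.9 CPM in Control, and the part of depth in this difference was not tested.

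In the other comparisons miR-19a-3p was not called. Between S24h and S6h its log2 fold change was -3.49 (edgeR, adjusted p = 0.109), and between S72h and S24h it was 3.08 (adjusted p = 0.431). At 6 h and 72 h against Control it was -1.14 (adjusted p = 0.991) and -1.55 (adjusted p = 0.580).

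miR-19b-3p, which has the seed of miR-19a-3p, was read in every Control, S6h and S72h mouse and was at 0 in 2 of the 6 S24h mice. It ranged from 93.8 to 660 CPM in Control (median 204), from 72.5 to 315 in S6h (median 190), from 0 to 230 in S24h (median 80.9) and from 81.2 to 277 in S72h (median 166). The S24h group was the lowest by mean and median, and its values overlapped those of each other group. The log2 fold change at 24 h against Control was -1.55 (95% interval -3.26 to 0.17; edgeR, adjusted p = 0.210) and did not pass the threshold. As the mature sequences of miR-19a-3p and miR-19b-3p differ by 1 base, reads could be split between them, and how reads that match more than 1 place were counted is not given in the sources used here.

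miR-17-5p and miR-20a-5p, the pair with the AAAGUGC seed, did not have the same order of groups. miR-17-5p ranged from 157 to 735 CPM in Control (median 238), from 6.18 to 172 in S6h (median 134), from 0 to 447 in S24h (median 134) and from 26.1 to 254 in S72h (median 110). Control was highest by mean, and its highest value, in Control replicate 2, lay apart from the other 5. The log2 fold changes against Control were -1.35 at 6 h, -0.88 at 24 h and -1.25 at 72 h (edgeR, adjusted p = 0.991, 0.504 and 0.413). miR-20a-5p had its highest mean in S24h, 242 ± 161 CPM, and 208 ± 140 in Control, 133 ± 65.0 in S6h and 192 ± 192 in S72h (SD, n = 6). Each of these groups overlapped the others, and at 24 h against Control the log2 fold change was 0.11 (95% interval -1.72 to 1.95; edgeR, adjusted p = 0.961).

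miR-18a-5p varied little between Control mice and widely between late mice. It ranged from 46.1 to 126 CPM in Control (median 84.6) and from 39.0 to 169 in S6h, with a mean of 99.4 ± 45.3 (SD, n = 6). In S24h it ranged from 0 to 298 (median 151) and in S72h from 0 to 323 (median 91.2), with 2 mice at 0 in each of these groups. Its log2 fold change at 24 h against Control was 0.51 (edgeR, adjusted p = 0.798).

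miR-17-3p, the other arm of the Mir17 hairpin, was at 0 in 8 of the 24 libraries. Its means were 105 ± 114 CPM in Control, 95.9 ± 89.0 in S6h, 43.9 ± 65.4 in S24h and 96.6 ± 102 in S72h (SD, n = 6), so that in 3 of the 4 groups the SD was as large as the mean or larger. It was not called in any comparison, and at 24 h against Control its log2 fold change was -1.42 (edgeR, adjusted p = 0.511).

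**Figure D2:**
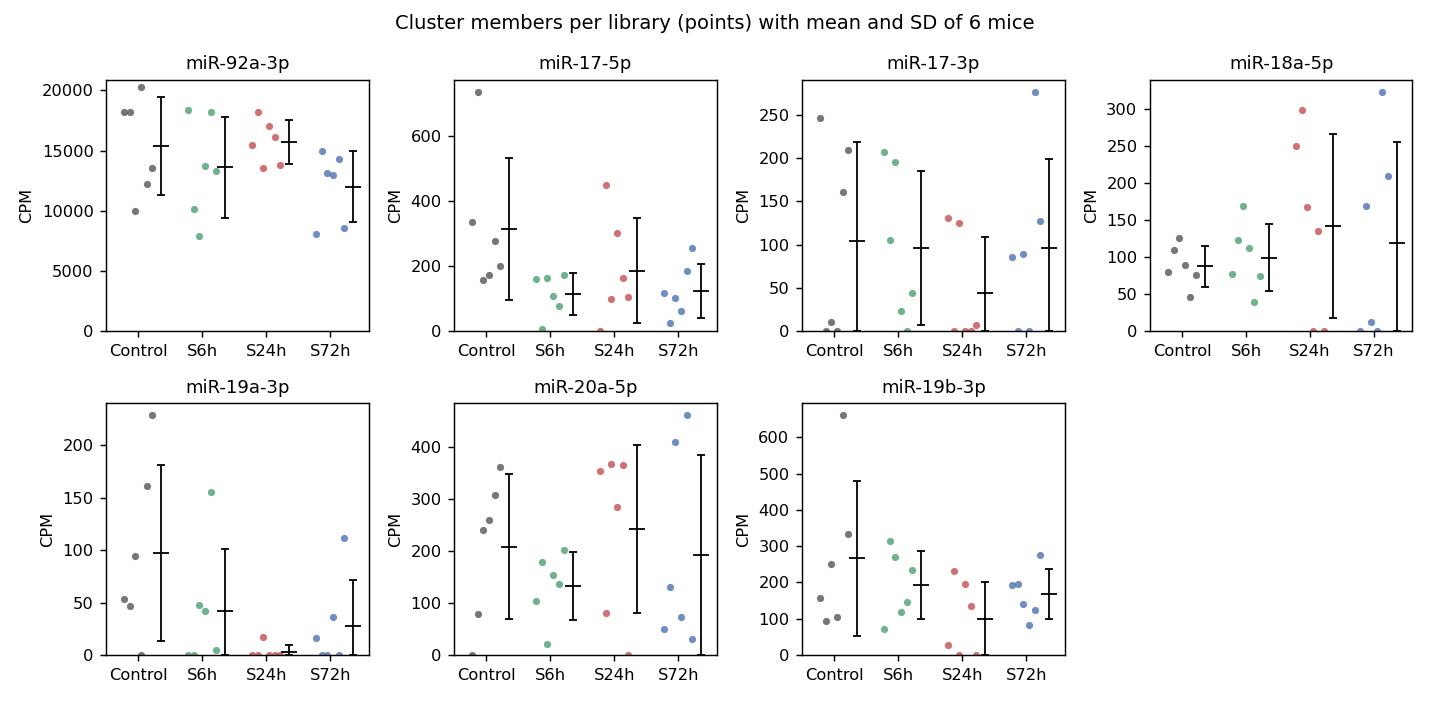
CPM of each member in each library (points, 6 mice per group) with the mean and SD of the group (bar with whiskers, cut at 0) on linear axes that differ between panels. miR-92a-3p lies between 7897 and 20264 CPM in all groups, the S24h points of miR-19a-3p are at 0 except for 1 mouse at 16.7 CPM, and points at 0 occur among all members but miR-92a-3p.

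The 6 members other than miR-92a-3p had low counts, with a median of 13.5 and a highest count of 88 over their 144 values. Of these values 28 were at 0, where counting error alone at the group's mean rate would give 4.87. The variance of the counts over that of counting error, per member and group, ranged from 0.98 to 24.5. All 7 members were read together in 7 of the 24 libraries. The members read per library were 6.33 on average in Control, 6.5 in S6h, 4.67 in S24h and 5.83 in S72h. The part of depth in these numbers was not tested.

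No comparison had more than 1 member called. In S6h against Control none of the 7 was called, beside 0% of all miRNAs tested by edgeR and 0 by DESeq2, and none had an unadjusted p under 0.05, beside 3.57% of all. In S72h against Control none was called, beside 3.57% of all, and none had an unadjusted p under 0.05, beside 19% of all. In S24h against S6h none was called, beside 20.2% of all, and in S72h against S24h none was called, beside 0.397%. At an unadjusted p under 0.05, miR-19a-3p alone was counted in S24h against Control, where 29.4% of all miRNAs were, in S24h against S6h, where 29% were, and in S72h against S24h, where 11.5% were. Against Control the members had a median log2 fold change of -0.37 in S6h, -0.88 in S24h and -0.28 in S72h, beside -0.02, -0.21 and -0.06 over all miRNAs tested. In S24h against S6h their median was -0.01, beside -0.23 over all, and in S72h against S24h it was -0.13, beside 0.09.

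The arms of the Mcm7 cluster were set beside the members. Apart from miR-92a-3p against miR-25-3p, the difference between the clusters was not tested. All 6 listed arms passed the limit, with 62800 counts in all. miR-25-3p ranged from 8940 to 20907 CPM in Control (median 15389), from 8584 to 17472 in S6h (median 13961), from 3435 to 9647 in S24h (median 6832) and from 2869 to 15852 in S72h (median 6971). The S24h values of miR-25-3p lay below those of Control except that 2 S24h mice were above the lowest Control mouse. Its log2 fold change at 24 h was -1.29 against Control (standard error 0.36; edgeR, adjusted p = 0.0152) and -1.17 against S6h (standard error 0.36; adjusted p = 0.0226). miR-93-5p fell by 1.43 on the log2 scale and miR-106b-5p by 1.70 against Control (edgeR, adjusted p = 0.00657 and 0.00792), so that 3 of the 6 arms were called lower at 24 h, beside 7.94% of all miRNAs. The others were not called, with miR-106b-3p at -1.60 (edgeR, adjusted p = 0.0624), miR-93-3p at 0.79 and miR-25-5p at 0.37. miR-106b-3p was called with DESeq2 (-1.49, adjusted p = 0.0464) and by edgeR with only the 2 groups (adjusted p = 0.04995). Between S24h and S6h miR-25-3p, miR-93-5p and miR-106b-5p were also called, beside 13.9% of all miRNAs called lower. For miR-106b-5p the adjusted p there was 0.0427 (edgeR), and the call was lost in 5 of 6 alternative settings and in 10 of 12 fits without 1 mouse. The call of miR-25-3p against Control was lost without Control replicate 1, S24h replicate 3 or S24h replicate 6, and that against S6h in 5 of 12 fits without 1 mouse, with RLE size factors (adjusted p = 0.0544) and with column totals (adjusted p = 0.0688). With all mice, none of the arms was called at 6 h or 72 h against Control by edgeR, and DESeq2 called miR-25-3p at 72 h (DESeq2, adjusted p = 0.0474). Without 1 mouse, edgeR called miR-93-5p lower at 72 h against Control in 1 of 12 fits.

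**Figure D3:**
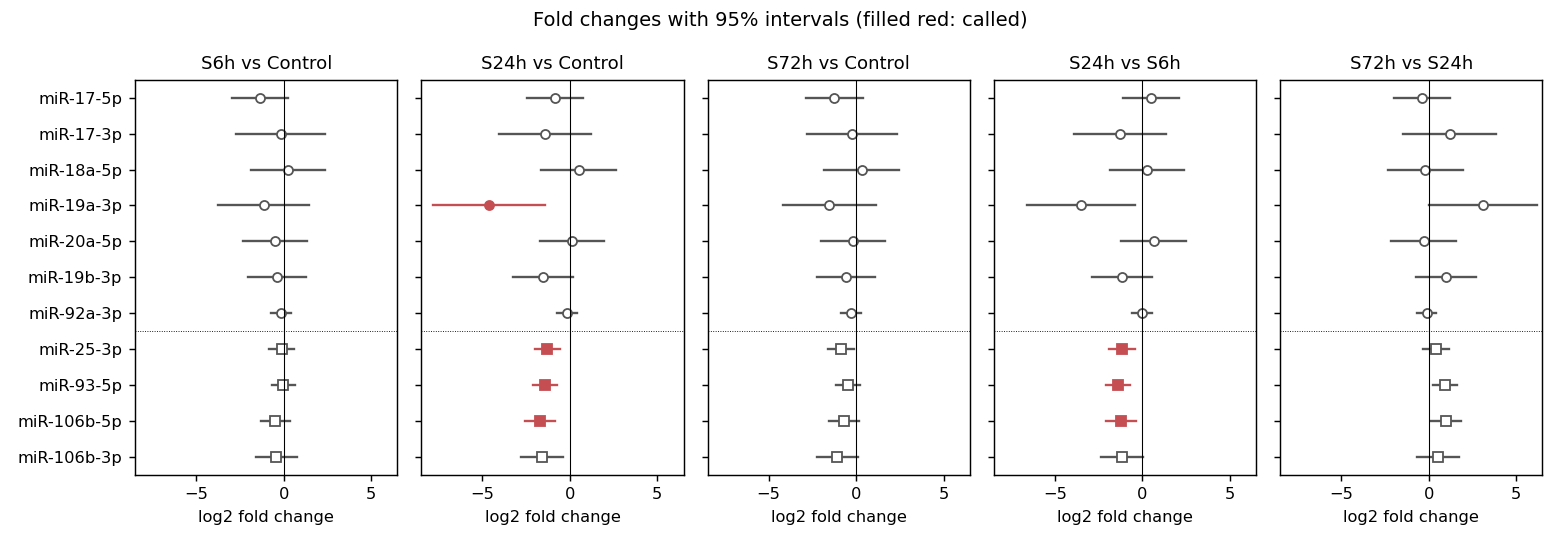
Log2 fold changes (horizontal axis) with 95% intervals from edgeR for the 7 members (circles, above the dotted line) and 4 arms of the Mcm7 cluster (squares, below it), in 5 comparisons. The arms drawn are miR-25-3p, miR-93-5p, miR-106b-5p and miR-106b-3p, while miR-93-3p and miR-25-5p are not drawn. Filled red symbols were called; these are miR-19a-3p at 24 h against Control, and miR-25-3p, miR-93-5p and miR-106b-5p at 24 h against Control and against S6h.

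miR-92a-3p and miR-25-3p, which share a seed and have similar levels in Control mice, were set against each other within each library, where the scaling of the library has no part. The log2 ratio of the counts of miR-92a-3p to those of miR-25-3p, with 1 count added to each, ranged from -0.89 to 1.18 in Control, from -1.02 to 0.50 in S6h, from 0.70 to 1.98 in S24h and from -0.89 to 2.38 in S72h. All 6 S24h mice were above 0, and they lay above all S6h mice and overlapped Control through 1 Control mouse. The means were 0.06 ± 0.68, 0.00 ± 0.59, 1.29 ± 0.51 and 0.83 ± 1.37 (SD, n = 6).

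The ratio was 2.34-fold higher in S24h than in Control, a difference of 1.23 on the log2 scale with a standard error of 0.35 (exact two-sided permutation test, p = 0.00866, adjusted p = 0.0216 over the 5 comparisons, n = 6 each). It was above the Control median in 6 of 6 S24h mice. Against S6h it was 2.44-fold higher, a difference of 1.29 with a standard error of 0.32 (exact permutation test, p = 0.00216, the smallest that 924 assignments can give, adjusted p = 0.0108). At 6 h the ratio differed from Control by -0.06 (exact permutation test, p = 0.890). The S72h mice were divided, with 3 mice between 1.84 and 2.38 and 3 between -0.89 and 0.12, and their mean differed from Control by 0.77 (exact permutation test, p = 0.238, adjusted p = 0.397) and from S24h by -0.45 (exact permutation test, p = 0.457, adjusted p = 0.571). Of the pair, miR-25-3p was called in both comparisons at 24 h (against S6h not with RLE size factors or column totals) and miR-92a-3p in neither. The study had already named miR-25-3p among its down-regulated miRNAs at 24 h, from these same libraries. The relatives were chosen with earlier results known, so the p values of the ratio at 24 h are not independent support.

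**Figure D4:**
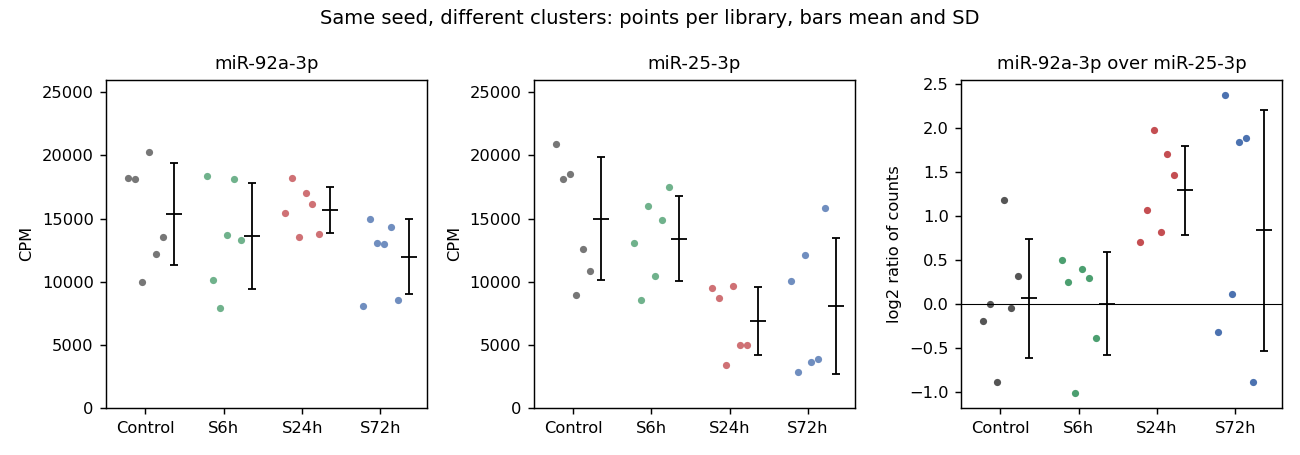
CPM of miR-92a-3p and of miR-25-3p (left and middle, linear axes of the same range) and the log2 ratio of their counts (right) per library, with mean and SD of 6 mice per group. The S24h mice lie from 0.70 to 1.98 on the ratio, above all S6h mice, while 3 S72h mice lie at or below 0.12 and 3 at or above 1.84.

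Markers of red cells were set beside these results. The summed level of 7 erythroid miRNAs (miR-451a, miR-144 and miR-486 arms, of which 6 passed the limit), which are abundant in red cells, had a range of 104309 to 190543 CPM in Control, 73130 to 124588 in S6h, 29828 to 122463 in S24h and 42219 to 171005 in S72h. The means were 143914, 106358, 67137 and 82713 CPM. Most counts of the list over the 24 libraries were those of miR-486b-5p (190854), miR-451a (93734) and miR-486a-5p (64132). The sum thus mainly holds reads of miR-486 and miR-451a. The lowest sums were in S24h and S72h mice, and the groups overlapped. Of the 6 erythroid miRNAs tested, 3 (miR-451a, miR-486a-5p and miR-486b-5p) were called lower at 24 h against Control, beside 7.94% of all miRNAs, and 1 (miR-451a) against S6h, beside 13.9%. The miR-486a and miR-486b arms are close copies that can share reads. None was called at 6 h or 72 h against Control (edgeR). In S24h, the 6 log2 fold changes ran from -1.42 to -0.10 against Control and from -1.27 to 0.62 against S6h. Over the 24 libraries Pearson's r with the erythroid sum was 0.87 for the log2 level of miR-25-3p and -0.09 for that of miR-92a-3p. With the log2 ratio of miR-451a to miR-23a-3p, a usual measure of red cell RNA in serum, r was 0.39 for miR-25-3p and -0.04 for miR-92a-3p. These are descriptions, since the values share library totals and depth and the groups differ. The part of red cell RNA in the difference between miR-92a-3p and miR-25-3p was not tested, and fewer vesicles or cells of a type and less miRNA in each cannot be told apart in such samples.

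**Figure D5:**
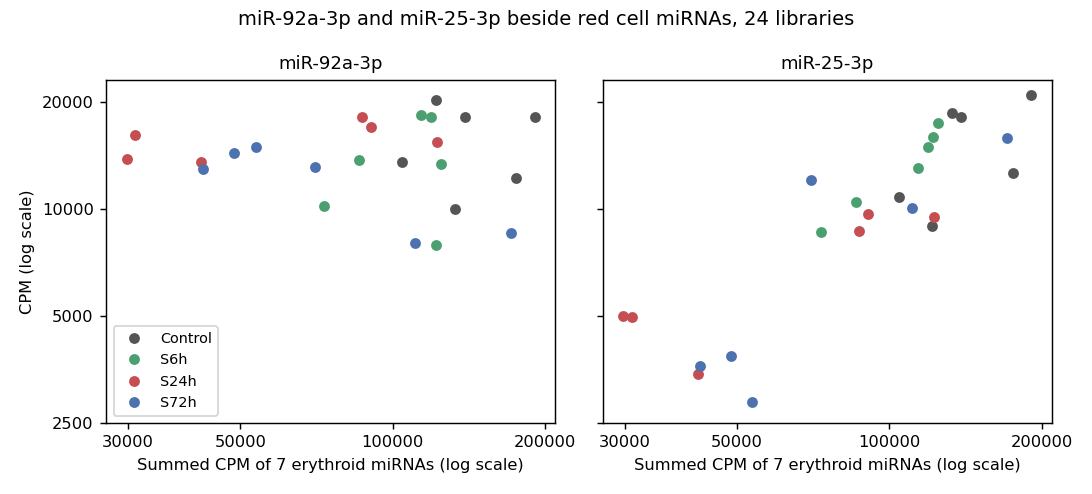
CPM of miR-92a-3p (left) and miR-25-3p (right) against the summed CPM of 7 erythroid miRNAs, each point 1 library, coloured by group, on log axes. The miR-25-3p points rise with the erythroid sum (r = 0.87) and the miR-92a-3p points do not (r = -0.09).

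Platelet markers (5 of 5 passed the limit) had mean summed levels of 10279 to 13216 CPM in the 4 groups, and leukocyte markers (5 of 5) of 5861 to 9750 CPM. The leukocyte sum was highest in S24h, where it ranged from 6734 to 17038 CPM, beside 4240 to 9923 CPM in Control. Of the 5 platelet miRNAs, miR-199a-3p was called lower at 24 h against Control (log2 fold change -1.66, edgeR), beside 7.94% of all miRNAs. Against S6h, miR-199a-3p (-2.26) and miR-223-3p (-1.06), which myeloid cells also hold, were called lower, beside 13.9%. In S24h, log2 fold changes of the 5 platelet miRNAs ran from -1.66 to 0.64 against Control and from -2.26 to 0.24 against S6h. Of the 5 leukocyte miRNAs, miR-150-5p was called, at 1.39 in S24h against S6h, beside 20.2% of all called in either direction. The called marker miRNAs were named after their values were seen, and their part in the members' results was not tested.

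By the correlation of log2 CPM over the 24 libraries, after centring each library on its median, the 5 tested miRNAs most like miR-92a-3p were let-7g-5p (r = 0.73), let-7d-3p (0.62), miR-10a-5p (0.62), miR-340-5p (0.61) and miR-122-5p (0.58). Within groups, miR-30d-5p (0.68) and miR-125a-5p (0.67), named after their values were seen, were above all of these except let-7g-5p (0.78). None of the other members of the cluster was among these 5.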

How the data were processed

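Mature miRNA counts of 24 serum EV libraries were analysed. According to the methods, the authors removed adapters with cutadapt v2.4, aligned reads to GRCm38 (mm10 in the submitters' notes) with Bowtie v1.2.2, which also trimmed 8 random adapter bases, selected reads of 20 to 24 bases with Samtools v1.10 and counted them with featureCounts on miRBase v22. Libraries were made from 2.3 ng RNA with 22 PCR cycles, and removal of duplicates or treatment of multi-mapping reads is not given in the sources used here. The deposited values are whole-number counts without normalization. CPM were computed from column totals.

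The 7 members and the lists of relatives and markers were chosen with earlier results of these data known. R 4.3.3 with edgeR 4.0.16 (TMM, quasi-likelihood test, 1 model of 4 groups, Benjamini-Hochberg adjustment over 252 of 1966 miRNAs with at least 10 CPM in 12 libraries) gave the fold changes; DESeq2 1.42.0 was an alternative. Named miRNAs were the members, other arms of their hairpins, arms of the paralogous clusters, and the 5 miRNAs most like miR-92a-3p. Ratios were compared by exact permutation tests. Alternatives concerned the test, scaling, filter, groups in the model, pseudocount, replicate block and leaving out each mouse. Leaving out a mouse was first run with the limit on low counts applied anew; fits that kept the 252 miRNAs were added after seeing those results, and both are given. The tests were tested on simulated data. No libraries were identical. Sequences are from RefSeq (29 of 31 listed names matched) and gene positions from Gencode, both for GRCm38.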

Additional observations from a re-analysis of the deposited data

Results flagged for a closer look

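In 4 of 32 groups of 6 mice (7 members and the ratio of miR-92a-3p to miR-25-3p, in 4 groups), the highest mouse lay apart from the others, with a gap to the next mouse, as a share of the group's range, above Dixon's 95% critical value for 6 samples. Chance gives about 1 in 20 groups if values are normally distributed, which low counts with mice at 0 are not, so no chance number is given for these groups. For miR-17-5p, Control replicate 2 had 735 CPM from 47 counts, and the gap was 0.693 of the range. For miR-19a-3p, S6h replicate 5 had 156 CPM from 16 counts (0.697 of the range), S72h replicate 6 had 112 CPM from 15 counts (0.678), and S24h replicate 3 had 16.7 CPM from 2 counts where the other 5 mice were at 0 (1.0, the whole range, as any count above 0 would give).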

How the results depend on the processing

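The call of miR-19a-3p at 24 h against Control depended on processing. Under RLE size factors, no filter on low counts and the replicate block 0 members were called, and with DESeq2, column totals or only the 2 groups 1 was. When each mouse was left out, the number of members called ran from 0 to 1. With the limit on low counts applied anew, miR-19a-3p was tested in 6 of 12 such fits and called in 1, without Control replicate 4. With the tested set kept, an alternative chosen after seeing those fits, it was called in 4 of 12, without Control replicate 1, 2 or 4 or S24h replicate 3. It lay below 0 in all of these fits. The cause was not tested.

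Some signs changed. miR-92a-3p at 24 h was 0.028 against Control with column totals, and against S6h it was 0.24 with DESeq2 and with RLE, 0.20 with column totals, 0.12 without the filter and 0.0065 with the replicate block. With the block, miR-17-3p at 6 h against Control was 1.2 and miR-18a-5p in S24h against S6h was -0.026. Without 1 mouse, at 6 h against Control miR-17-3p ran from -0.52 to 0.41, miR-19b-3p from -0.62 to 0.076, miR-92a-3p from -0.25 to 0.18, miR-25-3p from -0.23 to 0.057, miR-93-5p from -0.17 to 0.091 and the log2 ratio from -0.25 to 0.17. At 24 h against Control miR-92a-3p ran from -0.25 to 0.14 and miR-20a-5p from -0.15 to 0.58. At 72 h against Control miR-17-3p ran from -0.80 to 0.42, miR-18a-5p from -0.27 to 0.74 and miR-20a-5p from -0.60 to 0.24. In S24h against S6h miR-92a-3p ran from -0.14 to 0.26 and miR-18a-5p from -0.069 to 0.73, and in S72h against S24h miR-17-5p ran from -0.74 to 0.076 and miR-18a-5p from -0.87 to 0.14. The causes were not tested.

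The call of miR-25-3p at 24 h against Control held in 6 of 6 other settings and in 9 of 12 fits without 1 mouse, and was lost without Control replicate 1, S24h replicate 3 or S24h replicate 6 (11 of 12 with the tested set kept). Against S6h it held in 4 of 6 settings, and was lost with RLE and column totals, and without S6h replicate 3, 5 or 6 or S24h replicate 3 or 6. miR-93-5p was called in both comparisons under every setting and without each mouse.

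Replicate numbers did not pair the mice, since the correlations of same-numbered mice ran from -0.14 to 0.19 over 30 pairs, with 6 over 0.1. With the replicate block the log2 ratio differed by 1.23 in S24h against Control and by 1.29 against S6h, each at an adjusted p of 0.156 by an exact sign-flip permutation test, whose smallest unadjusted p is 0.03125. A single comparison at that p has 0.156 after adjustment over 5, as did S24h against S6h, where 6 of 6 same-numbered differences were above 0, so the test could not pass the threshold there and says nothing about stability. The ratio at 24 h kept its side of the threshold with pseudocounts of 0.5 and 5 and without each mouse.

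Over all miRNAs tested, 30 were called at 24 h against Control, 10 of them higher, beside 50 with DESeq2 (23 higher), 37 with RLE (18 higher) and 37 with column totals (17 higher). At 72 h the 9 calls became 21 with DESeq2, 2 with column totals, 0 with only the 2 groups and 1 with the block. At 6 h 2 were called without the filter, and in S72h against S24h 4 with DESeq2, 10 without the filter and 0 with only the 2 groups, beside 1. In S24h against S6h 51 were called, 16 higher, beside 43 with RLE (22 higher), 57 with DESeq2 (27 higher) and 37 with column totals (19 higher). The median log2 fold change of all miRNAs at 24 h against Control was -0.21 with TMM, -0.06 with RLE and -0.03 with column totals, and against S6h -0.23, 0.06 and -0.0047. Low counts limit the 6 members other than miR-92a-3p.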

Other observations

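The 5 miRNAs most like miR-92a-3p across libraries included let-7g-5p, a member of the let-7 family that restrains growth, whose log2 fold change at 24 h against Control was 0.03 (edgeR, adjusted p = 0.961). miR-10a-5p, encoded among the Hox genes, had -0.15 in S24h (adjusted p = 0.776) and in S72h -0.71 (adjusted p = 0.138). miR-122-5p, the main miRNA of hepatocytes, was at -2.64 at 6 h with a standard error of 1.01 (edgeR, adjusted p = 0.991), at -1.98 at 24 h (adjusted p = 0.176) and at 0.11 at 72 h. None of the 5 was called in any of the 5 comparisons. miR-18a-3p, the other arm of Mir18, was at 0 in 9 of 24 libraries, and its log2 fold changes against Control were 0.69 at 6 h, -0.05 at 24 h and 0.99 at 72 h, none of them called.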
